A study of Mus musculus with 4 samples.

Results

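The genes described here are 40 genes whose products act in G2 phase and mitosis, listed by name, among the 26041 gene symbols of the count tables. They were followed in 1249 single cells from testes of 4 wk old mice of a B6N strain with an Eomes icre/ERT2 allele, labelled as germ cells. All cells, of either genotype, carried the Eomes-iCreERt2-tdTomato knock-in allele and were sorted by tdTOMATO fluorescence, a reporter of the promoter of Eomes, a transcription factor found in a subset of undifferentiated spermatogonia. Plzf +/+ cells filled plates 1 and 2 and part of plate 4 (317, 303 and 277 cells), and cells homozygous for the luxoid mutation, Plzf lu/lu, filled plate 3 and the other wells of plate 4 (314 and 38 cells). The cells of 1 genotype on 1 plate are called a library. This gave 3 Plzf +/+ and 2 Plzf lu/lu libraries, and since the labels name no animals, p-values measure the spread between these libraries only, which may be technical. Plates 1 to 3 each held 1 genotype, so that outside plate 4 the plate and the genotype cannot be told apart.

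A cell that has copied its DNA passes through G2 and then divides its chromosomes in mitosis. CDK1 with cyclins A and B drives entry into mitosis, the mitotic kinases and kinetochores attach chromosomes to the spindle, and the anaphase-promoting complex destroys cyclin B and other targets to end it. Most genes of this group are transcribed late in the cycle, and their promoters are known for CCAAT boxes, bound by NF-Y, and for the cell cycle homology region, a short element close to the start of transcription that is bound by the DREAM complex and by B-MYB with FOXM1. Spermatogonial stem cells and their early progeny divide by mitosis before the switch to meiosis.

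The libraries held 254514 to 2608702 unique molecular identifiers (UMIs, 1 for each captured 3' end), with medians of 5061 to 6364 UMIs per cell. Of 376 well barcodes in use, 358 occurred in more than 1 library, since each plate carries the same set, and 0 were shared by the libraries of plate 4. The germ cell gene Dazl was detected in 86.8% to 95.6% of the cells of each library. Zbtb16, the symbol of Plzf in the tables, stood at 53.1 to 77.0 UMIs per 1000000 in the Plzf +/+ and 11.8 to 17.6 in the Plzf lu/lu libraries (edgeR adjusted p = 0.0319). Of the plate 4 cells listed as Plzf +/+, 5 lay in wells that the labels give to Plzf lu/lu.

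Promoter sequences show what most members have in common beside their role. RefSeq promoters (GRCm38.p6, 250 bases before to 50 after the start) were matched by symbol for 33 of the 40 members; Aurkb, Ccna2, Cdc25c, Cdca2, Dlgap5, Smc4 and Tpx2 had no entry. CCAAT, read on either strand, occurred in the promoters of 25 of the 33 members (75.8%) and in 37.4% of all 32851 promoters of the table. TTTGAA or TTCGAA on either strand, letters of the cell cycle homology region, occurred in 25 of the 33 members (75.8%) and in 19.2% of all promoters. Both kinds occurred together in 21 members (63.6%), against 7.52% of all promoters. Of the 42 matches to TTTGAA or TTCGAA in members, 64.3% lay within 50 bases of the start, against 26.0% of the 7783 matches in all promoters. TTTGGC was found in 2 of the 33 members and in 12.9% of all promoters. TTCGAA reads the same on both strands, so each of its sites counts as 2 matches, and a CCAAT can share a base with the other motifs. These are matches of letters and not sites of binding.

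The 160 bases before the start are shown for 6 members on which later results turn, 5′ to 3′ along the gene, with the letters of these motifs, on either strand, in capitals. The first 4 carry TTTGAA or its reverse complement close to the start. Ccnb1 has CCAAT only, and the TTTGAA match of Cenpf lies just past the start, outside the window. They lie at chr10:69352913-69353072 (minus strand), chr4:118437344-118437503 (minus strand), chr11:99024190-99024349 (minus strand), chr2:164769769-164769928 (plus strand), chr13:100786487-100786646 (minus strand) and chr1:189688087-189688246 (minus strand), in the order below.
Cdk1: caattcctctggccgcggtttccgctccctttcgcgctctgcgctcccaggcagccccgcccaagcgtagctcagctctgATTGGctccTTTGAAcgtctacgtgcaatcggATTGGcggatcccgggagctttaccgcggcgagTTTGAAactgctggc
Cdc20: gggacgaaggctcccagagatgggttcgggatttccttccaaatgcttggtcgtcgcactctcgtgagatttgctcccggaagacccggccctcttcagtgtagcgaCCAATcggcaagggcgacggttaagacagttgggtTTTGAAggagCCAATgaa
Top2a: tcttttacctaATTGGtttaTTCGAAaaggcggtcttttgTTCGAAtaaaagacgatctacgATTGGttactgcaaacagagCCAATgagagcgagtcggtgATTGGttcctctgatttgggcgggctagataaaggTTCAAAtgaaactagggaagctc
Ube2c: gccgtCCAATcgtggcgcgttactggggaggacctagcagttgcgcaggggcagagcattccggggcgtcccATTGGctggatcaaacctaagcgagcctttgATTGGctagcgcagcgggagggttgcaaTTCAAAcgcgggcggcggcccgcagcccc
Ccnb1: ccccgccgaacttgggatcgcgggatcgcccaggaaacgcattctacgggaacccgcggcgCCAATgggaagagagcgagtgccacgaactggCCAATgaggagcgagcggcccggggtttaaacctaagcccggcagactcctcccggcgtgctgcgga
Cenpf: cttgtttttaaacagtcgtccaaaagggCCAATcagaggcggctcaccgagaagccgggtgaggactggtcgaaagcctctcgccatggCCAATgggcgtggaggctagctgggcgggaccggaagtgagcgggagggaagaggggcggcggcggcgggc
All 6 windows hold CCAAT at least 2 times, and a further TTTGAA of Cdk1 stands between its boxes.

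All 40 members were detected. The members together held 47647 UMIs, or 0.508% of all UMIs, and 3 of them (Cenpf, Smc4 and Cenpe) held 27.4% of these; UMI counts of 3' ends are not scaled by transcript length. A cell had UMIs of 13 members in the median, 5 cells had none, and at most 40 were seen in 1 cell. In Plzf +/+ cells the share with a UMI ran from 12.9% for Gtse1, a microtubule-associated regulator of p53, to 79.8% for Cenpf, a large kinetochore protein of G2 and mitosis. In Plzf lu/lu cells it ran from 11.4% for Hmmr, a spindle protein, to 70.2% for Hjurp, the chaperone that loads CENP-A on centromeres.

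The members took a smaller share of the UMIs in Plzf lu/lu cells. On plates 1, 2 and 4 the Plzf +/+ cells gave them 0.578%, 0.535% and 0.540% of their UMIs (mean 0.551% ± 0.0232, SD, n = 3). On plates 3 and 4 the Plzf lu/lu cells gave them 0.414% and 0.402% (0.408% ± 0.00902, SD, n = 2). The groups did not overlap, and on plate 4, which held both genotypes, the values were 0.540% and 0.402%. The median cell gave 0.438%, 0.421% and 0.387% for Plzf +/+ and 0.348% and 0.341% for Plzf lu/lu. No p is given for a sum over chosen genes. The 35 genes of the S phase list summed to 6517, 5902 and 5211 UMIs per 1000000 in Plzf +/+ and to 6001 and 5261 in Plzf lu/lu libraries, which overlap; 0 of them passed the edgeR test below, and their median log2 fold change was 0.02. As a background level, 26 cells with UMIs of at least 4 Sertoli cell markers and none of Dazl, at a median of 3168 UMIs, gave the members 0.175% of their UMIs.

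Gene by gene, 0 of 40 members passed the test between the genotypes (edgeR quasi-likelihood test on sums per library, adjusted p under 0.05), where 0.816% of the 13728 genes tested did (0.583% higher and 0.233% lower in Plzf lu/lu). At an unadjusted p under 0.05 there were 9 of 40 members, against 14.2% of all genes, and DESeq2 called 1 member, Cenpf, among 0.976% of all genes. The log2 fold change was negative for 32 of 40 members, against 49.7% of all genes, with a median of -0.31 beside 0.00 over all genes tested. Both Plzf lu/lu libraries lay below all 3 Plzf +/+ libraries for 18 of 40 members, against 16.0% of all genes. They lay above them for 1 member, Gtse1, against 18.5% of all genes. On plate 4 alone, with 1 library of each genotype and no test, 31 of 40 members were lower in Plzf lu/lu (median log2 difference -0.35), against 53.7% of all genes. With each cell thinned to 2000 UMIs before summing, 23 of 40 members were negative and their median was -0.12; without cells carrying markers of other cell types it was -0.18, with 32 negative.

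**Figure D1:**
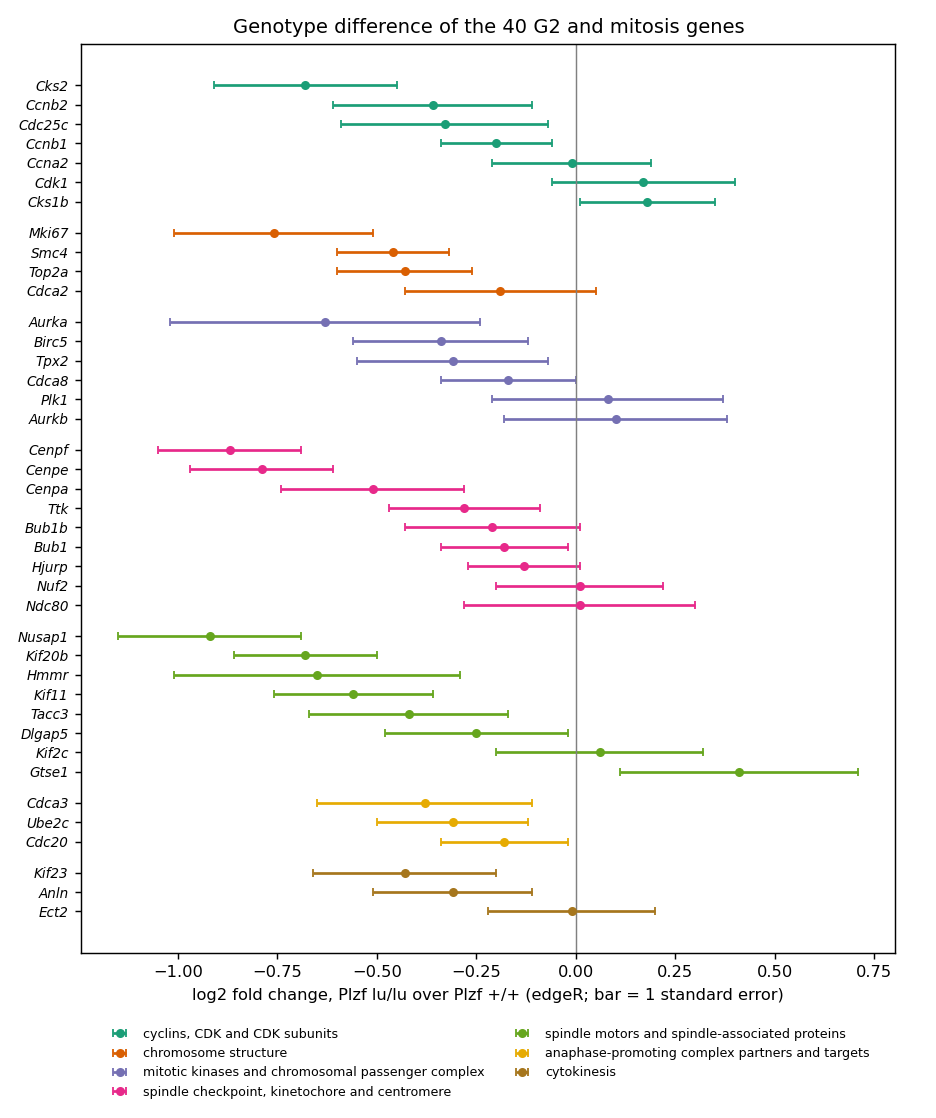
Log2 fold change of Plzf lu/lu over Plzf +/+ for the 40 members, grouped by role, with bars of 1 standard error from the edgeR fit on 3 and 2 libraries. Points left of the line are lower in Plzf lu/lu; 32 of 40 lie there, and Gtse1 lies farthest to the right.

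The 5 members with the smallest p are given first, though none of them passed the test. Cenpf, a protein of kinetochores, stood at 703, 518 and 700 counts per 1000000 (CPM, scaled by TMM) for Plzf +/+ (plates 1, 2 and 4) and at 327 and 378 for Plzf lu/lu (plates 3 and 4), the order used from here on. Its log2 fold change was -0.87 ± 0.18 (SE; edgeR adjusted p = 0.0698; 1.96e-05 to 0.62 over 11 alternatives). Cenpe, the kinetochore motor that brings chromosomes to the spindle equator, stood at 462, 360 and 415 CPM against 212 and 273 CPM (log2 fold change -0.79 ± 0.18, SE; edgeR adjusted p = 0.0924). The libraries of the genotypes did not overlap for either gene, and neither passed the test.

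Nusap1, which bundles spindle microtubules, stood at 54.3, 60.8 and 57.4 CPM in Plzf +/+ and 32.7 and 24.1 CPM in Plzf lu/lu libraries (log2 fold change -0.92 ± 0.23, SE; edgeR adjusted p = 0.127). The value of plate 4 rests on 6 UMIs, and with cells thinned to 2000 UMIs the log2 fold change of Nusap1 was -0.25 ± 0.38 (SE; edgeR adjusted p = 0.807). Kif20b, a mitotic kinesin, stood at 159, 141 and 165 CPM against 88.1 and 113 CPM (-0.68 ± 0.18, SE; edgeR adjusted p = 0.143). Smc4, a core subunit of condensin, stood at 512, 591 and 542 CPM against 423 and 366 CPM (-0.46 ± 0.14, SE; edgeR adjusted p = 0.188). For all 3 genes both Plzf lu/lu libraries lay below the others, with differences that did not pass the test.

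Among the drivers of the cell cycle the order of the libraries was mixed. Cdk1, the kinase of mitotic entry, stood at 82.8, 84.2 and 68.7 CPM in Plzf +/+ and at 104 and 60.3 CPM in Plzf lu/lu libraries (log2 fold change 0.17 ± 0.23, SE). Ccna2, cyclin A2, stood at 102, 85.4 and 86.1 CPM against 102 and 68.4 CPM (-0.01 ± 0.20, SE). The Plzf lu/lu libraries of both genes spanned those of Plzf +/+. Ccnb1, cyclin B1, stood at 263, 235 and 236 CPM against 212 and 213 CPM (-0.20 ± 0.14, SE; edgeR adjusted p = 0.603). Plk1, a kinase of mitotic entry and exit, stood at 31.8, 56.3 and 50.8 CPM against 51.0 and 44.2 CPM. Cks1b and Cks2, small subunits that bind CDK1, had differences of opposite sign, neither past the test. Cks2 stood at 51.9, 47.2 and 55.9 CPM against 33.9 and 28.2 CPM (-0.68 ± 0.23, SE; edgeR adjusted p = 0.230), and Cks1b at 190, 155 and 150 CPM against 201 and 165 CPM (0.18 ± 0.17, SE). The difference between these 2 genes was not tested.

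**Figure D2:**
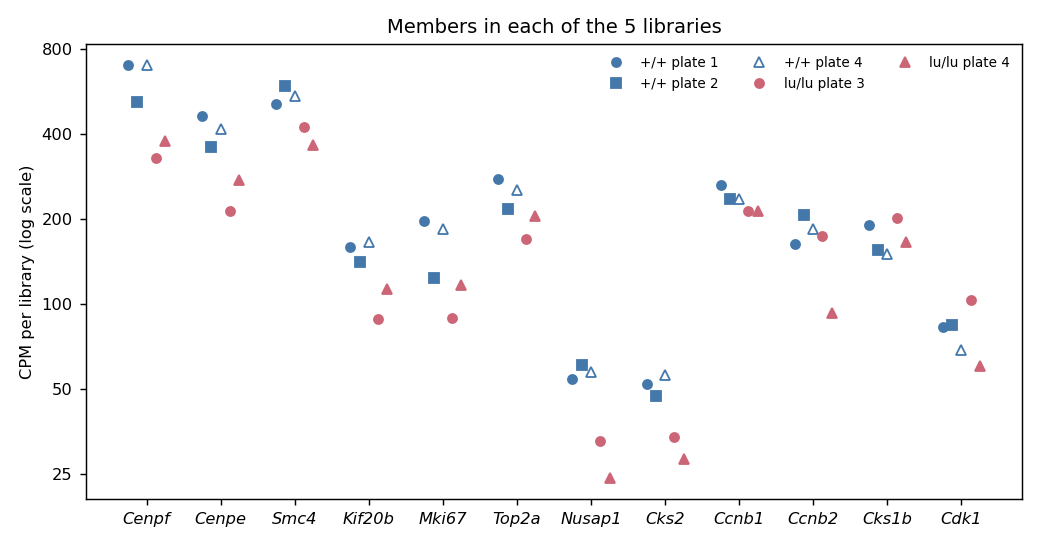
CPM per library on a log axis for 12 members; blue is Plzf +/+ (circles plate 1, squares plate 2, open triangles plate 4) and red is Plzf lu/lu (circles plate 3, triangles plate 4). Both red points lie below all blue points for Cenpf, Cenpe, Smc4, Kif20b, Mki67, Top2a, Nusap1, Cks2 and Ccnb1, while the genotypes overlap for Ccnb2, Cks1b and Cdk1.

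By role, the members of chromosome structure (Mki67, Top2a, Smc4, Cdca2) had a median log2 fold change of -0.45, with non-overlapping libraries for 3 of 4. Mki67, the coat protein of mitotic chromosomes, stood at 196, 124 and 184 CPM against 89.3 and 117 CPM (-0.76 ± 0.25, SE; edgeR adjusted p = 0.214). Spindle motors and spindle-associated proteins had a median of -0.49 (5 of 8 members with both Plzf lu/lu libraries below, where 16.0% of all genes tested were), and checkpoint, kinetochore and centromere members one of -0.21 (4 of 9). Cyclins, CDK1 and its subunits had a median of -0.20 (2 of 7), and mitotic kinases with the chromosomal passenger complex one of -0.24 (1 of 6). The 3 partners and targets of the anaphase-promoting complex (Cdc20, Ube2c and Cdca3) and the 3 cytokinesis members each had a median of -0.31, with 2 and 1 members below. The order of these medians was not tested. Of 62 further genes of G2 and mitosis, 60 were tested and 0 passed; 44 were negative (median -0.14), and 20 had both Plzf lu/lu libraries below the others, beside the same 16.0%.

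Markers of undifferentiated spermatogonia and of other cells moved with the genotype or set a library apart. The 17 markers of undifferentiated spermatogonia summed to 1116 to 1226 UMIs per 1000000 in Plzf +/+ and to 857 and 711 in Plzf lu/lu libraries, without overlap; 12 of 17 were negative (median log2 fold change -0.41), 3 passed the test as lower and 1 as higher, and 10 had an unadjusted p under 0.05. The 14 spermatid markers summed to 1751, 7129 and 6398 in Plzf +/+ and to 2561 and 7351 in Plzf lu/lu libraries, so that plate 1 stood apart from the other Plzf +/+ libraries; 0 of 14 passed. The 14 Sertoli cell markers, of which Amh was absent and 11 were tested, summed to 467 to 560 UMIs per 1000000 in Plzf +/+ and 1112 and 754 in Plzf lu/lu libraries; 4 of the 11 passed the test, all higher. Cells with UMIs of at least 4 of these markers numbered 40 of 897 and 52 of 352. When these cells and those with at least 1% of UMIs from spermatid or spermatocyte markers were left out (76 and 59 cells), 7 of 40 members passed the edgeR test, all lower in Plzf lu/lu, where 9.33% of the 12438 genes tested passed (4.63% lower and 4.70% higher) and 22.9% had an unadjusted p under 0.05. The 7 were Cenpf (log2 fold change -0.86 ± 0.15, SE; edgeR adjusted p = 0.00138), Cenpe (-0.86), Kif20b (-0.77), Mki67 (-0.81), Smc4 (-0.58), Kif11 (-0.62), the motor that pushes spindle poles apart, and Nusap1 (-0.75). Without the Plzf +/+ library of plate 1, 6 members passed (Cenpf, Cenpe, Aurka, Kif20b, Nusap1 and Smc4), all lower, among 10.2% of all genes. Without any of the other 4 libraries 0 members passed, in fits that called 1 to 6 genes in all. The part of the markers of undifferentiated spermatogonia in the differences of the members was not tested.

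Transcript length moved with the genotype difference across all genes. By the longest protein-coding transcript of GENCODE vM1, known for 11286 of the 13728 genes (82.2%) and for all 40 members, genes were put into 4 groups of nearly equal size; the median log2 fold change was 0.14 in the shortest group, 0.07 and -0.02 in the next, and -0.16 in the longest (Spearman rho -0.241 across genes, which are not independent replicates). The 10 members in the longest group, among them Cenpf (11137 bases), Mki67 (10075), Cenpe (7813) and Kif20b (5563), had a median of -0.50, and all 10 were negative. The 5 members of the shortest group had a median of -0.36, the 12 of the next -0.09 and the 13 of the third -0.28. Over the 40 members Spearman rho of the log2 fold change with length was -0.348. Cks2 (692 bases) and Nusap1 (3526) were also at -0.68 or below. The part of length in the differences of the members was not tested.

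**Figure D3:**
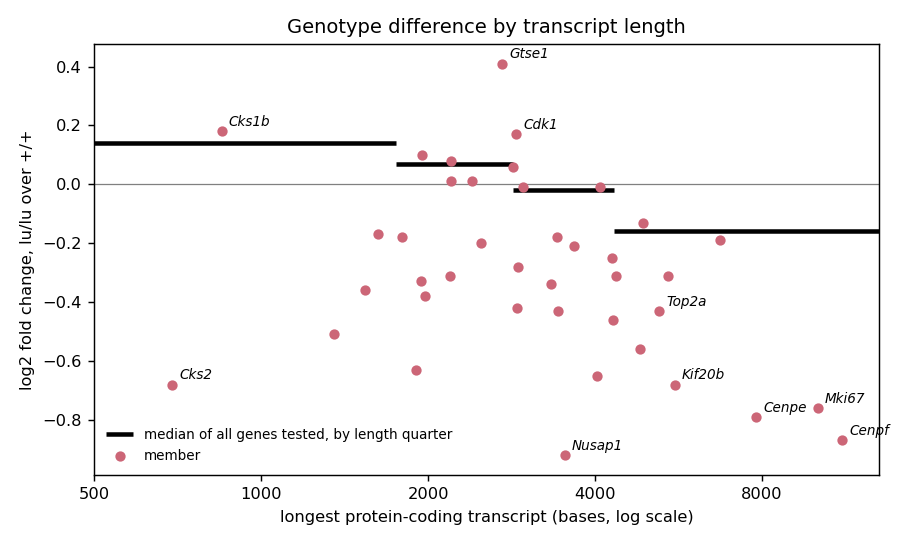
Log2 fold change of Plzf lu/lu over Plzf +/+ against the longest protein-coding transcript (log axis) for the 40 members, with the median of all genes tested in each of 4 length groups as black bars, drawn to the edges of the axis. Members of the longest group lie at a median of -0.50 and those genes in all at -0.16.

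The members varied together from cell to cell. In each of the 4 libraries of at least 200 cells, 95.1% to 97.9% of the 780 pairs of members had a positive Pearson r of ln(1 + UMIs per 10000), with a median of 0.167, 0.151 and 0.182 for Plzf +/+ on plates 1, 2 and 4 and 0.130 for Plzf lu/lu on plate 3 (317, 303, 277 and 314 cells). Pairs within a role (median r 0.127 to 0.164) were not closer than pairs between roles (0.156 to 0.185) for Plzf +/+, and nearly level with them for Plzf lu/lu on plate 3 (0.135 and 0.130). In cells thinned to 2000 UMIs 71.9% to 80.6% of the pairs were positive, with medians of 0.0417 to 0.0741. Before thinning the closest pair was Top2a, the topoisomerase that untangles sister chromatids, with Mki67 (r = 0.630, 0.599, 0.562 and 0.385), followed by Ccna2 with Top2a (median r 0.415) and Ccna2 with Mki67 (0.410). Cenpe and Cenpf had a median r of 0.403, and Aurka with Plk1, which it activates, one of 0.339. The points share library and depth: r of the summed share of the members with ln total UMIs was 0.170 to 0.354.

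Against the summed share of the other members, Top2a (median r 0.572), Mki67 (0.549), Cenpf (0.548), Ccnb1 (0.498) and Ccna2 (0.463) stood highest. Cdc25c, the phosphatase that activates CDK1 (0.0594), Cks1b (0.123) and Gtse1 (0.157) stood lowest, and 39 of 40 members were above 0 in all 4 libraries, against 36.3% of 11249 other genes. The median over members was 0.313, and 0.175 in cells thinned at random to 2000 UMIs. These are correlations over cells, given as a description.

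**Figure D4:**
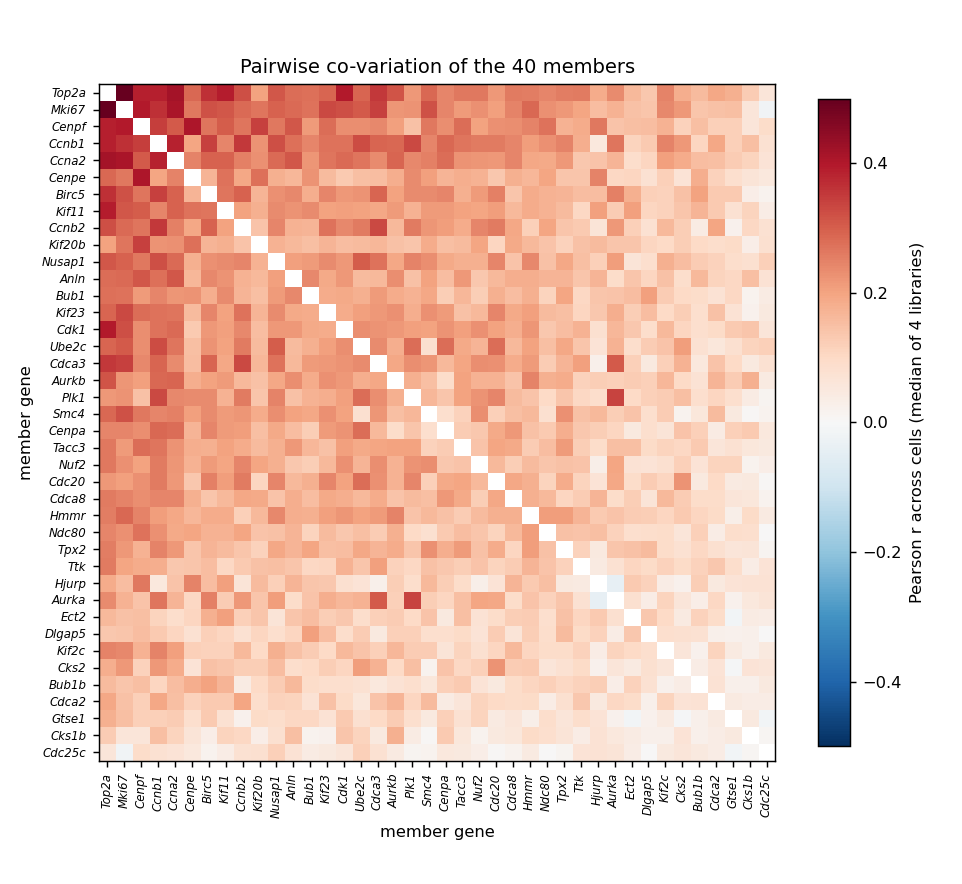
Pearson r across cells for each pair of the 40 members, as the median of 4 libraries, with members ordered by their r with the other members. Red is positive; Top2a with Mki67 is the darkest pair, pairs of Top2a fill the top row, and the last rows (Gtse1, Cks1b, Cdc25c) are near 0.

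The S phase list followed the members in the same cells, with r of 0.510 to 0.635 between the summed shares, and the further genes of G2 and mitosis with r of 0.645 to 0.775. Among 11249 other genes seen in at least 5% of cells, the 10 with the highest lowest r over the 4 libraries were Tuba3b (0.449 to 0.578), Tuba3a, Hmgb2, Tubb4b, Pbk, Prc1, Nasp, Smc1b, Gmnn and Hells (0.330 to 0.416). Tuba3a, Tuba3b and Tubb4b encode tubulins, and Tuba3a and Tuba3b are close copies whose 3' ends may share reads. Hmgb2, Tubb4b, Pbk and Prc1 were on the list of further genes of G2 and mitosis and Nasp, Gmnn and Hells on that of S phase, while Smc1b encodes a cohesin subunit of meiosis. The median r over the 11249 genes was 0.0382.

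To compare cells of unequal depth, each of the 1167 cells with at least 2000 UMIs was thinned to 2000, and a cell with at least 10 UMIs of the members (0.5%) was called G2/M-high. The number of member UMIs was 8 in the median cell, ran from 0 to 51, and had no gap at the limit: 339 cells held 8 to 12, so that G2/M-high is a range and not a stage of the cycle. Of these cells 465 were G2/M-high, with a median depth of 7074 UMIs before thinning against 5869 in the others.

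In G2/M-high cells the mean UMIs of every member were higher by unequal factors, given as a description since the members chose the cells. The ratio to the other cells was 7.55 for Mki67, 6.54 for Top2a, 6.04 for Hmmr and 5.32 for Ccna2. It was 1.93 for Cdc20, the activator of the anaphase-promoting complex, 1.5 for Cks1b and 1.35 for Cdc25c. Cks1b made up 2.81% of the member UMIs in G2/M-high and 5.47% in other cells.

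G2/M-high cells were less frequent in both Plzf lu/lu libraries. They made up 47.9% (147 of 307 cells; exact Clopper-Pearson 95% interval 42.2% to 53.6%), 40.2% (111 of 276; 34.4% to 46.3%) and 41.4% (104 of 251; 35.3% to 47.8%) of the Plzf +/+ cells on plates 1, 2 and 4. Among Plzf lu/lu cells they made up 30.9% (94 of 304; 25.8% to 36.4%) and 31.0% (9 of 29; 15.3% to 50.8%). The values did not overlap. The intervals of Plzf +/+ plate 1 and Plzf lu/lu plate 3 lay apart, while those of all other pairs of the genotypes, plate 4 included, overlapped; they cover counting error only. Averaged over 20 thinnings the shares were 47.1%, 43.2% and 40.6% against 30.4% and 29.0%. With all UMIs of a cell kept and the same limit of 0.5% the means were 39.2% and 28.2%. Of the 22 deep enough cells with Sertoli cell markers and no Dazl UMI, 1 was G2/M-high (4.55%, interval 0.115% to 22.8%).

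Gfra1 encodes the GDNF co-receptor of undifferentiated spermatogonia. Cells with a Gfra1 UMI were deeper than those without (medians 6140 to 9461 against 4055 to 4750 UMIs), so the status was also read on the thinned cell. At this equal depth G2/M-high cells made up 40.4%, 30.6% and 33.3% of the Plzf +/+ cells with a Gfra1 UMI and 52.0%, 46.7% and 45.5% of those without, on plates 1, 2 and 4. All 3 libraries differed the same way, by -11.7, -16.0 and -12.2 percentage points, and by -6.60, -9.39 and -14.4 in the mean of 20 thinnings. The sign depended on the setting in some libraries. Plate 2 was at 4.45 points at 1000 UMIs per cell. With the status of the whole cell, plate 2 was at 0.636 points with all UMIs, 4.70 at a limit of 6 UMIs and 6.67 at 1000 UMIs, where plate 1 also had more G2/M-high cells with a Gfra1 UMI (49.8% against 46.4%). Depth before thinning moved with the status: the medians were 5344 UMIs with and 6017 without a Gfra1 UMI on plate 1, 6030 and 6989 on plate 2, and 6202 and 6400 on plate 4, and its part in the difference was not tested. For Plzf lu/lu on plate 3 the shares were 31.9% and 30.7%, a difference of 1.18 points that was -1.23 in the mean of 20 thinnings; its cells with a Gfra1 UMI were the deeper ones (7297 against 6099 UMIs). The library of plate 4 held 6 thinned cells with a Gfra1 UMI, too few to read. Whether the genotypes differ in this was not tested.

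**Figure D5:**
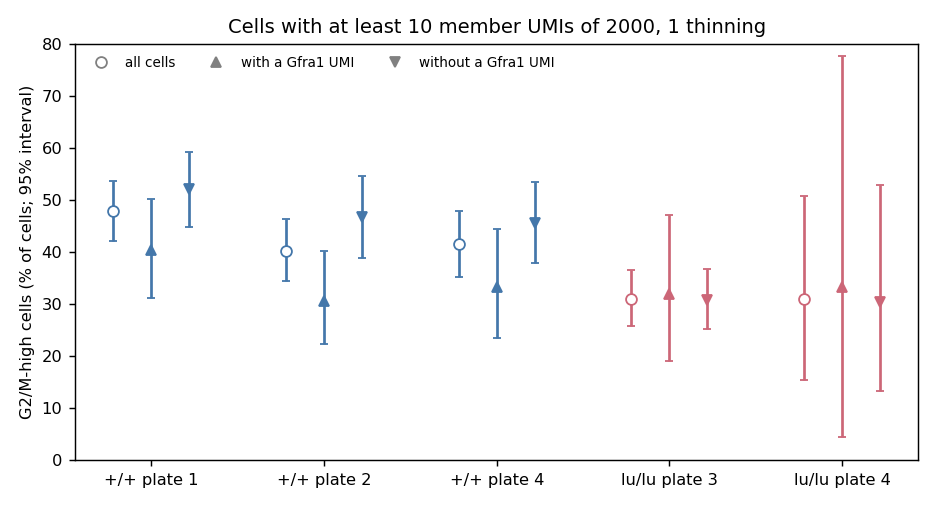
Share of G2/M-high cells in each library for all cells (open circles), cells with (upward triangles) and without (downward triangles) a Gfra1 UMI at 2000 UMIs per cell, with exact 95% intervals. The Plzf +/+ libraries lie between 40.2% and 47.9% and the Plzf lu/lu libraries at 30.9% and 31.0%; within Plzf +/+ the cells without a Gfra1 UMI lie higher.

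Of 22 markers of spermatogonia examined in Plzf +/+ and 14 in Plzf lu/lu, Stra8, induced by retinoic acid as spermatogonia differentiate, is described here after its values were seen. In the mean of 20 thinnings G2/M-high cells were more frequent among cells with a Stra8 UMI by 21.6, 14.5 and 12.4 points in Plzf +/+ and by 15.3 points in Plzf lu/lu on plate 3, while plate 4 held 5.9 such cells in the mean, too few to read. At 1 thinning, with the cells of the libraries pooled and no test, they made up 64 of 103 Plzf +/+ cells with a Stra8 UMI (62.1%) and 298 of 731 without (40.8%). In Plzf lu/lu they made up 30 of 67 (44.8%) and 73 of 266 (27.4%). At that thinning, of 6 differentiating markers in Plzf +/+ 5 had a higher share of G2/M-high cells with a UMI than without and 1 a lower one, and of 5 in Plzf lu/lu 3 a higher and 2 a lower one. Of 16 markers of undifferentiated spermatogonia in Plzf +/+, 5 had a higher and 11 a lower share with a UMI, and of 9 in Plzf lu/lu 6 a higher and 3 a lower one. Single markers could change sign with the thinning, and these counts were not tested.

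The test of single genes by Gfra1 status compared sums of cells with and without a Gfra1 UMI, with each library as its own control. Of 40 members 0 passed (edgeR), where 0.198% of 10604 genes did; 5 members had an unadjusted p under 0.05, against 9.16% of all genes, and DESeq2 called 0. The log2 fold change was negative for 29 of 40 members (median -0.13), against 47.2% of all genes (median 0.02). Among the further genes of G2 and mitosis 28 were negative and 27 positive (median -0.0). Among the S phase list 10 were negative and 25 positive (median 0.18), and 0 of either list passed. Markers of other cells had differences of the same sign as most members. Of 8 Sertoli cell markers tested 7 were negative (median -1.51, 5 at an edgeR unadjusted p under 0.05, 0 called) and of 13 spermatid markers 11 (median -0.66, 0 called). Of 6 markers of differentiating spermatogonia 5 were negative (median -0.41, 1 called lower). Of 13 markers of undifferentiated spermatogonia, Gfra1 left out, 9 were positive and 4 negative (median 0.77, 3 called higher). The part of these markers in the result was not tested. Cks2 came closest of the members, with lower CPM in cells with a Gfra1 UMI in 5 of 5 libraries (-0.71 ± 0.19, SE, edgeR adjusted p = 0.209). It was followed by Cenpf (-0.32), Ccnb1 (-0.39), Cdca2 (-0.43) and Mki67 (-0.32), each lower in 4 of 5 libraries.

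The calls differed between fits. With Gfra1 status and counts both taken at 2000 UMIs per cell, 33 members passed the filter on low counts and 6 of them passed the test, where 4.66% of 4824 genes did (3.69% lower). These were Ccnb2 (log2 fold change -0.90 ± 0.22, SE; edgeR adjusted p = 0.00287), Mki67 (-0.77), Ccnb1 (-0.56), Ube2c (-1.07), Cenpf (-0.35) and Cdc20 (-0.84), all lower in cells with a Gfra1 UMI. With the status read at 2000 UMIs and all UMIs summed, 7 of 40 passed, where 8.64% of genes did (6.87% lower): Ube2c (-0.88), Ccnb1 (-0.57), Cdca3 (-0.68), Ccnb2 (-0.52), Nusap1 (-0.82), Top2a (-0.40) and Mki67 (-0.50). Without cells carrying markers of spermatids, spermatocytes or Sertoli cells, 4 of 40 passed, where 8.24% of genes did (4.14% lower): Ccnb1 (-0.53), Cenpf (-0.37), Cks2 (-0.68) and Mki67 (-0.40). Every member called in these fits was lower in cells with a Gfra1 UMI.

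The effect of Gfra1 status was not shown to differ between the genotypes: 0 of 40 members and 0 of 10604 genes passed the edgeR interaction test, DESeq2 called 0 genes, and 2 members had an unadjusted p under 0.05, against 7.37% of all genes. They were Nusap1 (-1.49 ± 0.65, SE; edgeR adjusted p = 0.660), at 0 CPM in the Plzf lu/lu cells of plate 4 with a Gfra1 UMI, and Ndc80, a microtubule-binding kinetochore protein (0.77 ± 0.35, SE; edgeR adjusted p = 0.669). Cenpf (-0.37), Cdca3 (-0.57) and Tpx2 (-0.66) followed. Taken within 1 status, the genotype difference of Cenpf was -1.21 ± 0.17 in cells with a Gfra1 UMI (SE; edgeR adjusted p = 0.0574) and -0.79 ± 0.22 in cells without (edgeR adjusted p = 0.225). Of the members 29 were negative in both, with medians of -0.40 and -0.32 beside -0.13 and -0.01 over all genes, and 0 passed in either, where 0.0885% and 0.488% of genes did.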

How the data were processed

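The authors deposited 1 table of raw UMI counts per genotype, with gene symbols in rows and cells in columns; the counts were not normalized. The submitters' processing notes name bcl2fastq 2.18.0.12, Picard 2.9.3, STAR 2.5.4a and GRCm38. The ending of a cell's name gave its library, and the table its genotype. No cell was removed, and 17 Plzf +/+ and 7 Plzf lu/lu cells with over 4 times the median UMIs of their genotype were kept as possible doublets. Libraries held 254514 to 2608702 UMIs; shares carry exact Clopper-Pearson 95% intervals for counting error only.

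UMIs were summed per library, or per library and Gfra1 status with library as a block, and fitted with edgeR 4.0.16 in R 4.3.3 (filterByExpr, TMM, robust glmQLFit and glmQLFTest); a Benjamini-Hochberg adjusted p under 0.05 over all genes tested was a call, and the SE was the log2 fold change over the root of F. DESeq2 1.42.0 was an alternative. Cells were thinned with NumPy 2.4.6 in Python 3.11.15 (seed 1). On simulated data the genotype test recovered 13.1% of genes changed by 1 and 98.0% of those changed by 3 on the log2 scale, and the interaction test 8.25% and 87.9%. The 3 libraries against 2 cannot reach an exact permutation p under 0.05, so none was used.

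Alternatives were RLE size factors, no filter, thinned counts, leaving out cells of other types or each library, a replicate block, other limits, depths and seeds, and, added after seeing the data, 20 thinnings, the status at 2000 UMIs with all UMIs summed, and genotype within a status. In each comparison members with an adjusted p under 0.05 were named, or the 5 with the smallest p, beside a fixed list of drivers. The members and lists were chosen with earlier results of these data known.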

Additional observations from a re-analysis of the deposited data

Results flagged for a closer look

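The difference in G2/M-high cells between cells with and without a Gfra1 UMI, at 2000 UMIs per cell, had opposite signs in the genotypes. It was -11.7, -16.0 and -12.2 percentage points for Plzf +/+ on plates 1, 2 and 4, and 1.18 and 2.9 points for Plzf lu/lu on plates 3 and 4, the last over 6 cells with a Gfra1 UMI. The difference between the genotypes was not tested. In the mean of 20 thinnings the Plzf lu/lu values were -1.23 and -15.8 points, so that the opposite sign was not kept.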

How the results depend on the processing

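Every member called in any of these fits was lower in Plzf lu/lu or in cells with a Gfra1 UMI. The alternatives for single named genes, with the untested median of the members on plate 4 counted among them, numbered 161. Of these 134 stayed the same, 27 passed the threshold newly and 0 reversed. Of 79 alternatives for the main results 39 stayed the same and 9 called more members. A further 24 moved by at least the SD between libraries, and 7 reversed in sign. Between the genotypes the number of members called was 0 with RLE, 1 with DESeq2, 2 with thinned cells, 5 without the filter and 7 without cells carrying other cell type transcripts, where 0.983%, 0.976%, 4.55%, 2.27% and 9.33% of all genes were called; leaving out 1 library gave 0 to 6, the 6 without Plzf +/+ plate 1. By Gfra1 status it was 1 with at least 2 Gfra1 UMIs, 4 without cells of other types, 6 with status and counts at 2000 UMIs and 7 with only the status read there, where 1.39%, 8.24%, 4.66% and 8.64% of all genes were called, and 0 without any 1 library (0.0373% to 1.31%). The interaction gave 0 members in each alternative run. Of all genes it called 0% with RLE or DESeq2, 0.754% without the filter and 0.0326% without cells of other types. The causes were not tested.

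With the replicate number as a block 0 members were called, and 0 of 13728 genes (edgeR; 973 at an unadjusted p under 0.05). The numbers are not shown to pair the samples: deviations of same-numbered libraries correlated at r = 0.0647 and 0.0105 over 8270 genes, and those of both genotypes on plate 4 at 0.108. Cenpf was at -0.79 ± 0.22 (SE; edgeR adjusted p = 0.620) under the block.

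Plzf +/+ cells were G2/M-high in 74.6% at a limit of 6 UMIs and 9.42% at 20, and Plzf lu/lu cells in 60.6% and 5.42%. The Plzf lu/lu share was 28.2% with all UMIs, 33.5% at 1000 UMIs, 32.0% with seed 2, 34.3% without cells of other types and 29.7% over 20 thinnings. The Plzf +/+ share was 39.2%, 45.8%, 44.1%, 43.6% and 43.7% in the same order. The Gfra1 difference of Plzf +/+ at equal depth was -5.76 (limit 6), -5.10 (limit 20), -5.51 (all UMIs, status from the whole cell), -5.91 (1000 UMIs), -10.0 (seed 2) and -10.1 points (20 thinnings). That of Plzf lu/lu, 2.04 points, turned negative in the same order, at -4.65, -2.91, -12.6, -0.0853, -18.5 and -8.53 points, and was -12.1 without cells of other types. These are means of 2 libraries, and plate 4 held only 5 to 15 cells with a Gfra1 UMI in the single thinnings and with all UMIs, 0 of 6 being G2/M-high with seed 2. On plate 3 alone the share with a Gfra1 UMI stayed above that without at a limit of 6 (63.8% against 62.3%) and 20 (6.38% against 3.50%), with all UMIs (27.7% against 27.2%) and with seed 2 (34.7% against 32.5%), and lay below it at 1000 UMIs (33.3% against 35.6%) and without cells of other types (12 of 40 against 34.3%). With Gfra1 status from the whole cell, the Plzf +/+ difference of -9.29 points became -3.52 (limit 6), -3.04 (limit 20) and -0.893 (1000 UMIs).

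The member share of UMIs was 0.5% and 0.397% for Plzf +/+ and Plzf lu/lu as a mean over cells. It was 0.391% and 0.312% without the 3 largest members, and 0.555% and 0.425% without cells of other types. The median r of members fell from 0.313 to 0.175 at 2000 UMIs. Depth limits Plzf lu/lu plate 4, where members had 6 to 94 UMIs each.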
